A study of Mus musculus with 20 samples.

Results

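The genes described here are 10 immediate early and AP-1 genes, *Fos*, *Fosb*, *Fosl1*, *Fosl2*, *Jun*, *Junb*, *Jund*, *Egr1*, *Atf3* and *Ier2*. They were taken by symbol from a count table of 54532 genes, and each had a row of its own. RNA-seq had been performed on whole condylar heads of the mouse temporomandibular joint (TMJ), the hinge between lower jaw and skull, taken with part of the subchondral bone under the cartilage. All animals, controls included, were homozygous for a floxed *Loxl2* gene and carried Acan-CreERT2, a Cre recombinase that acts in cells using the aggrecan (*Acan*) promoter once tamoxifen is given. *Loxl2* encodes a lysyl oxidase that crosslinks collagen and elastin. The control group held 8 libraries from animals given vehicle, and the other group 12 libraries from animals given tamoxifen at 75 mg/kg in corn oil. Injections were made on 5 consecutive days and then monthly, starting at 6 months of age, and tissue was collected after 4 months. Both sexes were used, but the labels give neither sex nor sequencing batch for a library, so no value within sex or batch is given. Because vehicle and tamoxifen differ between the groups as well, the drug and the deletion cannot be told apart. Cre acts in aggrecan-expressing cells, whereas the libraries hold RNA from every cell of the dissected tissue.

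AP-1 is a dimer of basic leucine zipper proteins. A member of the Fos family (FOS, FOSB, FOSL1, FOSL2) pairs with a member of the Jun family (JUN, JUNB, JUND), whereas Jun proteins also pair with each other and with ATF proteins. Immediate early genes are transcribed within minutes of a growth factor, cytokine, mechanical load or stress because the factors that switch them on are already in the cell, and most of their transcripts are short-lived. In cartilage, AP-1 is known for driving collagenase genes such as *Mmp13*, and in the bone below it *Fos* is required for osteoclasts to form.

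Sequence just before the transcription start is shown for 5 of the genes, since an immediate early response is wired in part through short elements at that place. RefSeq promoters (GRCm38.p6, 250 bases before and 50 bases after the start) were matched for 7 of the 10 genes, leaving out *Fosl1*, *Egr1* and *Ier2*. Each line gives the last 200 bases before the start, read 5′ to 3′ on the gene's strand. Capitals mark TGACG and TGACGT, the core of the CRE (the element bound by CREB and ATF proteins), or TGACATCA and TTACCTCA, AP-1-like elements, on either strand.
*Fos* (chr12:85473690-85473889, plus strand, GRCm38.p6): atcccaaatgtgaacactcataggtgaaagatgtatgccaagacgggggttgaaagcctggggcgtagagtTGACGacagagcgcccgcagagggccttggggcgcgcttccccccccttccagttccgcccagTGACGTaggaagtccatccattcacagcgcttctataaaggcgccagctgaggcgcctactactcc
*Fosb* (chr7:19310046-19310245, minus strand, GRCm38.p6): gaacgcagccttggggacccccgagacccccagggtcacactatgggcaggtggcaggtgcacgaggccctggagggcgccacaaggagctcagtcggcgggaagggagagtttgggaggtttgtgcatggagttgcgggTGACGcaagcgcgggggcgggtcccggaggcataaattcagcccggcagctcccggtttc
*Jun* (chr4:95052223-95052422, minus strand, GRCm38.p6): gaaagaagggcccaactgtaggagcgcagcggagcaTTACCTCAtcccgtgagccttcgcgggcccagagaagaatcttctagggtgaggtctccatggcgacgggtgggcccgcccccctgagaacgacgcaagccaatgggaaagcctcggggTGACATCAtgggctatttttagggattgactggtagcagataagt
*Junb* (chr8:84978749-84978948, minus strand, GRCm38.p6): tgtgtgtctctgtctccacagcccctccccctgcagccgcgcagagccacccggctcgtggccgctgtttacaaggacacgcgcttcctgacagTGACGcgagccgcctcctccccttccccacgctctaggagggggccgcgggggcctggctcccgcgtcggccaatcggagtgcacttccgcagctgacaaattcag
*Atf3* (chr1:191183334-191183533, minus strand, GRCm38.p6): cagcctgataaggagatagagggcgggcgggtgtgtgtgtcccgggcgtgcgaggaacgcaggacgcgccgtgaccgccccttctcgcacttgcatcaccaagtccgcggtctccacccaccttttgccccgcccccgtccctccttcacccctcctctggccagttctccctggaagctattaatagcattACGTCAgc
*Fos* held TGACGT from base -66 to base -61 relative to the start, a further TGACG from -129 to -125 and a TATAAA box from -33 to -28. *Atf3* held TGACGT on the opposite strand from -8 to -3, next to the RefSeq start, which lies inside the longer gene of the other annotation used here. *Fosb* held TGACG from -60 to -56, and *Junb* from -106 to -102. *Jun* held TGACATCA from -45 to -38 and TTACCTCA from -164 to -157. TGACGT, which contains TGACG, was present in 7.55% of 32544 mouse promoters of the same length, and in 2 of the 7 searched here. TGACG alone was present in 20.9% and in 4 of the 7. TGACATCA and TTACCTCA were present in 3.37% and 0.897% of all promoters, and TATAAA in 13.6%. Neither the full CRE TGACGTCA (1.8% of promoters) nor the AP-1 site TGANTCA (7.79%) nor the CArG box of serum response factor (1.64%) was found in these 7 windows. For *Jund* the RefSeq start lies 1210 bases before that of the GENCODE gene model, and for *Fosl2* and *Atf3* inside it, so those 3 windows do not adjoin that start. All motifs were searched on both strands of the 300 bases only, so a site further upstream would not be seen. A match describes letters only.

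The targeted gene was examined first. In the libraries labelled knockout *Loxl2* was not lower, at 101 CPM ± 26.9 (SD, n = 12; CPM, counts scaled to library size by TMM) against 64.5 CPM ± 30.9 (SD, n = 8) in control. The log2 difference was 0.64 with an SE of 0.28 (adjusted p = 0.101 in edgeR). Mean log2 CPM was 0.77 higher than in control (exact two-sided permutation test, p = 0.0271). Counts were per gene and do not show loss of single exons, and the study reported less LOXL2 protein by immunohistochemistry in its knockout mice. The animals are therefore called by their labels throughout. Totals ran from 11153820 to 27045668 counts per library. The 8 chondrocyte markers summed to between 101 and 3143 CPM in control and between 1551 and 4900 CPM in the libraries labelled knockout, but 8 skeletal muscle markers summed to between 42976 and 178280 CPM and between 32168 and 85130 CPM. Osteoclast markers were higher in the libraries labelled knockout, with 88.9 to 1000 CPM in sum in control against 471 to 5638 CPM, and so were macrophage markers, with 45.6 to 216 CPM against 135 to 532 CPM (exact permutation test of the mean log2 level, two-sided, adjusted p = 0.00139 for both over 13 library measures). Gene by gene, edgeR called all 8 osteoclast and 6 of the 8 macrophage markers as higher (adjusted p under 0.05), against 12.0% of all tested genes. No marker of either list stayed at or below 3 counts in every library. Mitochondrial transcripts made up 17.8% ± 2.78 (SD, n = 8) and 13.6% ± 3.03 (SD, n = 12) of all counts, and their share also differed (exact permutation test, adjusted p = 0.0172).

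Of the 10 genes, 5 were higher in the libraries labelled knockout and 0 were lower. *Fos*, *Fosl2*, *Junb*, *Jund* and *Ier2* passed an adjusted p of 0.05 in edgeR's quasi-likelihood test over all 15984 genes tested, with Benjamini-Hochberg adjustment. All 10 had passed the filter on low counts. Of all genes tested, 23.0% were called, 12.0% as higher (1918 genes) and the remainder as lower (1755 genes). The median log2 fold change of the 10 genes was 0.742 and 9 of them were positive, whereas the median over all tested genes was -0.018. At an unadjusted p under 0.05 there were 7 higher and 0 lower among the 10, against 2929 higher and 2981 lower among all 15984 genes. The DESeq2 Wald test also called 5 of the 10 higher and 0 lower, and 22.5% of 18767 genes in either direction. The groups overlapped for each of the 10 genes, and did not overlap for 0.300% of all tested genes. In bulk tissue, more cells that express a gene and more RNA of it per cell cannot be told apart, which applies to every difference below.

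**Figure D1:**
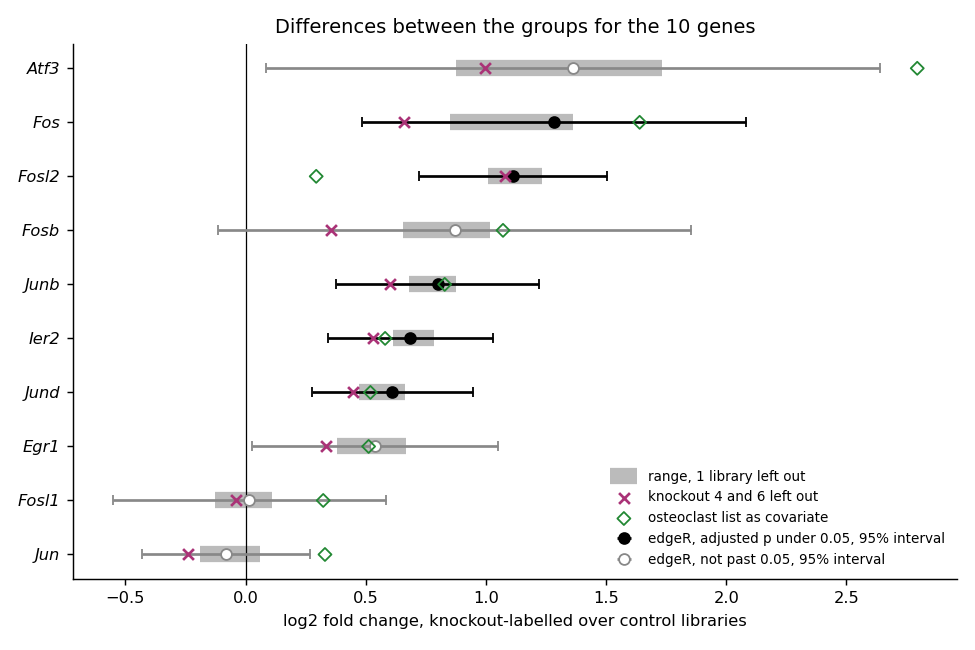
Log2 fold change of each gene, libraries labelled knockout over control (x axis), with the 95% interval of the edgeR estimate as a bar and filled points for the 5 genes past an adjusted p of 0.05. Gray blocks span the estimates with 1 library left out, crosses leave out knockout replicates 4 and 6, and diamonds add the mean level of 8 osteoclast markers as a covariate, where *Fosl2* moved to 0.29 and *Atf3* lay highest.

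Within the Fos family, *Fos* and *Fosl2* were higher in the libraries labelled knockout, and *Fosb* and *Fosl1* did not pass. *Fos* (ENSMUSG00000021250, chromosome 12, 85473890 to 85477273, plus strand, GRCm38/mm10) encodes c-FOS, whose transcript is among the fastest to appear and to decay. Its level ran from 6.64 CPM through a median of 12.1 to 16.9 CPM in control, and from 12.1 through 20.6 to 116 CPM in the libraries labelled knockout. All 12 of the latter lay above the control median and 9 above the highest control. The means were 12.4 CPM ± 3.17 (SD, n = 8) and 30.2 CPM ± 29.1 (SD, n = 12), and the fitted difference was 2.44-fold, a log2 fold change of 1.28 with an SE of 0.38 (adjusted p = 0.0197, edgeR). A single library, knockout replicate 4, was at 116 CPM, and without it the log2 fold change was 0.85, with an adjusted p that stayed at or under 0.0371 whichever library was left out.

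*Fosl2* (ENSMUSG00000029135, chromosome 5, 32135801 to 32157842, plus strand) encodes FRA-2, a Fos protein without the strong activation domain of c-FOS that is made more slowly and lasts longer. It ran from 25 CPM through a median of 33.1 to 52.3 CPM in control, and from 40.1 through 73.6 to 128 CPM in the libraries labelled knockout. Again all 12 lay above the control median and 9 above the highest control, but here the high values were spread over the group and knockout replicate 2 was highest. The difference was 2.16-fold, 1.11 on the log2 scale with an SE of 0.19 (adjusted p = 0.00119, edgeR), and ranked 72 by p over all tested genes. It was between 1.01 and 1.24 with any 1 library left out.

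*Fosb* (ENSMUSG00000003545, chromosome 7, 19302696 to 19310051, minus strand), whose protein accumulates as a shortened form on repeated stimulation, was scarce. Its levels were 0.713, 2.37 and 4.05 CPM (lowest, median, highest) in control, and 0.405, 3.1 and 11.2 CPM in the libraries labelled knockout, where counts ran from 8 to 295. The 3 highest libraries were, knockout replicates 4, 6 and 11 with 11, 11.2 and 8.43 CPM, and the next was at 4.15 CPM. Its log2 fold change of 0.87, with an SE of 0.47 and a 95% interval from -0.11 to 1.85, did not pass (adjusted p = 0.181, edgeR). *Fosl1* (ENSMUSG00000024912, chromosome 19, 5447547 to 5455946, plus strand), which encodes FRA-1, had nearly the same mean in both groups, 2.69 CPM ± 0.99 (SD, n = 8) and 2.72 CPM ± 0.99 (SD, n = 12). The difference of 0.02 on the log2 scale had an SE of 0.27 (adjusted p = 0.973, edgeR) and a 95% interval from -0.55 to 0.58 that leaves room for either direction. *Fosl1* overlaps *Ccdc85b* on the opposite strand, and since the use of strand in counting is not given, reads of that overlap cannot be assigned.

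**Figure D2:**
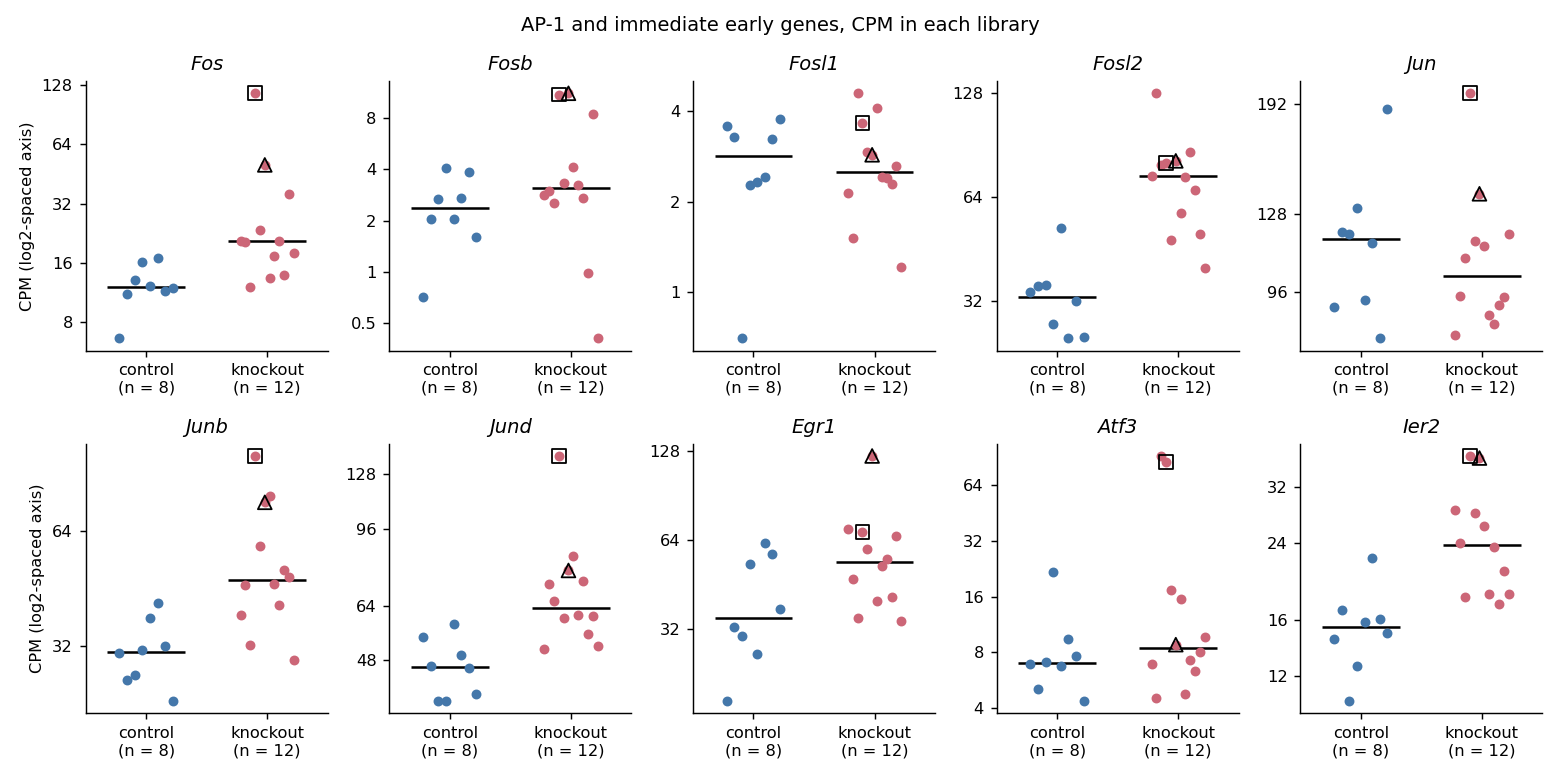
CPM of the 10 genes in each library on a log2-spaced y axis, control (blue, n = 8) and labelled knockout (red, n = 12), with the group median as a line. The square marks knockout replicate 4, highest of all 20 libraries for 5 genes, and the triangle knockout replicate 6, and the spread of *Fosl2* over the red points contrasts with the 2 high points of *Atf3* near 90 CPM.

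The Jun family was split, with *Junb* and *Jund* higher in the libraries labelled knockout and *Jun* not past the test. *Junb* (ENSMUSG00000052837, chromosome 8, 84974484 to 84978718, minus strand) encodes a weaker activator that can restrain c-JUN at many promoters. It ran from 22.9 CPM through 30.9 to 41.4 CPM in control, and from 29.3 through 47.6 to 101 CPM in the other group. In 11 of 12 libraries labelled knockout it lay above the control median, and in 8 above the highest control. Expression was 1.74-fold higher, 0.80 on the log2 scale with an SE of 0.20 (adjusted p = 0.0086, edgeR).

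*Jund* (ENSMUSG00000071076, chromosome 8, 70698949 to 70700616, plus strand, a single exon) encodes the Jun protein that most cells make without stimulation. Its control levels were tight, from 38.7 CPM through 46.3 to 58 CPM, and the libraries labelled knockout ran from 50.9 through 63.4 to 141 CPM. All 12 were above the control median and 9 above the highest control, and knockout replicate 4 stood apart at 141 CPM, with the next library at 83.2 CPM. The fitted difference was 1.53-fold, 0.61 on the log2 scale with an SE of 0.16 (adjusted p = 0.0103, edgeR), and 0.47 without that library.

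*Jun* (ENSMUSG00000052684, chromosome 4, 95049034 to 95052222, minus strand, a single exon) encodes c-JUN, the target of the JNK kinases after which they are named. It ran from 80.9 CPM through 117 to 189 CPM in control, and from 82 through 102 to 200 CPM in the libraries labelled knockout. Here the groups lay on top of each other, and only 3 of 12 libraries labelled knockout were above the control median. A log2 fold change of -0.08 had an SE of 0.17 (adjusted p = 0.763, edgeR) and a 95% interval from -0.43 to 0.27. Its sign was not stable, since it was 0.10 with library totals alone as scaling, a setting that moved the median of all genes from -0.018 to 0.12, and 0.06 without control replicate 8, the highest control. Each Jun gene overlaps another gene on the opposite strand (*Junos* for *Jun*, *Prdx2* for *Junb*, *Gm11175* for *Jund*), so that reads of those overlaps are uncertain.

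Of the other 3 immediate early genes, *Ier2* was higher and *Egr1* and *Atf3* did not pass. *Ier2* (ENSMUSG00000053560, chromosome 8, 84661331 to 84662852, minus strand, a single exon) encodes a small nuclear protein induced by growth factors. It ran from 10.5 CPM through 15.4 to 22.2 CPM in control, and from 17.4 through 23.7 to 37.7 CPM in the libraries labelled knockout, all 12 of them above the control median and 7 above the highest control. It was 1.61-fold higher by the fit, 0.69 on the log2 scale with an SE of 0.16 (adjusted p = 0.00637, edgeR). It was the most even of the 5 genes called, with a coefficient of variation of 28.4% among the libraries labelled knockout against 96.4% for *Fos*.

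*Egr1* (ENSMUSG00000038418, chromosome 18, 34859823 to 34864984, plus strand) encodes a zinc finger factor switched on through serum response factor. Levels ran from 18.3 CPM through 35 to 62.6 CPM in control, and from 34.2 through 53.9 to 123 CPM in the libraries labelled knockout. The control libraries were already spread widely, and 10 of 12 libraries labelled knockout were above their median but only 4 above their highest. A log2 fold change of 0.54, with an SE of 0.24 and a 95% interval from 0.03 to 1.05, missed the threshold (adjusted p = 0.114, edgeR), but passed under library totals alone (0.72, adjusted p = 0.0397).

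*Atf3* (ENSMUSG00000026628, chromosome 1, 191170296 to 191218039, minus strand) encodes a stress-induced factor that mostly represses and that pairs with Jun proteins. It ran from 4.36 CPM through 6.99 to 21.8 CPM in control, and from 4.56 through 8.4 to 91.8 CPM in the libraries labelled knockout. The medians were close, and the mean of 22.2 CPM ± 31.2 (SD, n = 12) in the latter rested on knockout replicates 3 and 4 with 91.8 and 84.8 CPM, whereas the next library was at 17.4 CPM. Its fitted log2 fold change of 1.36 was the largest of the 10, but with an SE of 0.61 and a 95% interval from 0.09 to 2.64 it did not pass (edgeR adjusted p = 0.108). Without knockout replicate 3 it was 0.88. A small RNA gene, *Gm24748*, lies within *Atf3* on the opposite strand.

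A pair of libraries carried much of the height of several genes. Knockout replicate 4 was the highest of all 20 libraries for 5 of the 10 genes and among the 3 highest for 8, and knockout replicate 6 was highest for 2 and among the 3 highest for 8. The median of the 10 genes' log2 differences from the control mean was 1.46 in replicate 4 and 1.30 in replicate 6. In the other libraries labelled knockout it lay between 0.12 and 0.81, and in the controls between -0.15 and 0.28. Without both libraries, an omission chosen after the data had been seen, the same 5 genes were called by edgeR, but with smaller differences for most. *Fos* went from 1.28 to 0.66 (adjusted p = 0.0276), *Junb* to 0.60 (adjusted p = 0.0187), *Jund* to 0.45 (adjusted p = 0.0109) and *Ier2* to 0.53 (adjusted p = 0.0145), whereas *Fosl2* stayed at 1.08 (adjusted p = 0.00399).

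Levels of different genes were set beside each other only after division by exon length (CPM per kb of annotated exon). *Jun* was highest in control with 36.8 CPM per kb ± 10.5 (SD, n = 8), followed by *Jund* with 27.9 ± 4.33. In the libraries labelled knockout *Jund* came first with 42.5 CPM per kb ± 14.6 (SD, n = 12) and *Jun* second with 34.8 ± 10.2. *Jun* exceeded *Jund* in 5 of 8 control libraries and in 2 of 12 libraries labelled knockout. Below them the order of the means was the same in both groups, running through *Junb* (13.5 and 23.5 CPM per kb), *Ier2* (10.2 and 16.3), *Egr1* (8.87 and 12.9), *Fos* (5.29 and 12.9), *Atf3* (4.01 and 10.3), *Fosl2* (3.45 and 7.47), *Fosl1* (1.32 and 1.34) and *Fosb* (0.395 and 0.719). Neighbours in that order could not always be told apart, since *Atf3* lay above *Fosl2* in 3 of 8 control libraries and in 5 of 12 of the others, and *Egr1* above *Fos* in 8 of 8 but 9 of 12. *Jund* lay above *Junb*, and *Fosl2* above *Fosl1*, in every library of both groups.

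Transcripts of Jun genes outnumbered those of Fos genes in all 20 libraries. The 3 Jun genes summed to 78.2 CPM per kb ± 7.97 (SD, n = 8) and 101 CPM per kb ± 32.2 (SD, n = 12), control first, and the 4 Fos genes to 10.5 ± 1.21 and 22.4 ± 13.5. The control range of the Fos sum, 8.21 to 12.1 CPM per kb, lay just below the range of 12.5 to 61.3 in the other group. For each of the 4 Fos genes alone the groups overlapped. The ratio of Jun to Fos sums was 7.55 ± 1.13 (SD, n = 8) and 5.03 ± 1.48 (SD, n = 12), and was lowest, 3.12, in knockout replicate 4. Within the Jun family the share of *Jun* was 46.6% ± 9.38 (SD, n = 8) among controls and 34.9% ± 4.36 (SD, n = 12) among the others, whereas *Jund* held 36% and 42.1% and *Junb* 17.5% and 23%. Within the Fos family *Fos* and *Fosl2* held 50.1% and 33.2% in control and 51.8% and 38.1% in the libraries labelled knockout, and the share of *Fosl1* was 13% and 7.03%. These sums and shares are combinations of the genes above and were not tested.

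**Figure D3:**
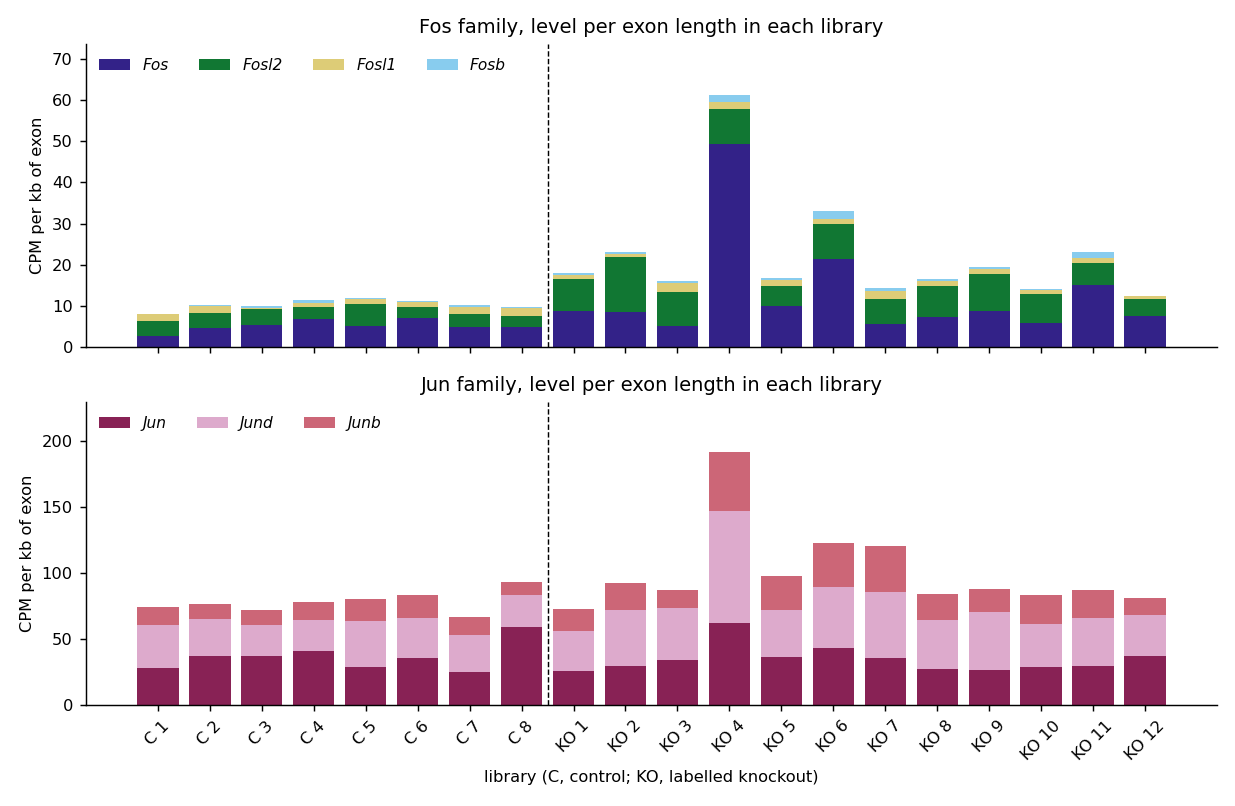
Summed level of the 4 Fos genes (top) and of the 3 Jun genes (bottom) in each library, in CPM per kb of exon, with a segment for each gene and a dashed line between the 8 control (C) and 12 labelled knockout (KO) libraries in the top panel. Knockout replicate 4 reaches 61.3 in the Fos family, mostly from *Fos*, and 191 in the Jun family.

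How the genes varied together was described by Pearson's r of log2 CPM over the 20 libraries after the mean of each group had been removed. The 45 pairs share libraries and their depth, so no p is given. The median r was 0.35, 13 pairs reached 0.5 and 4 were below 0. The highest value was 0.74 between *Junb* and *Jund*, and a second set was formed by *Fos*, *Fosb* and *Egr1*, with 0.71 for *Fos* and *Fosb*, 0.66 for *Fos* and *Egr1* and 0.73 for *Fosb* and *Egr1*. Without knockout replicates 4 and 6 these last 3 values were 0.57, 0.74 and 0.65. Other values rested on that pair of libraries, such as 0.60 for *Fos* and *Jun*, which was 0.09 without them, and 0.54 for *Fos* and *Jund*, which was -0.31. *Fosl2* did not follow *Fos*, with an r of 0.04 over all libraries and -0.23 without that pair.

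**Figure D4:**
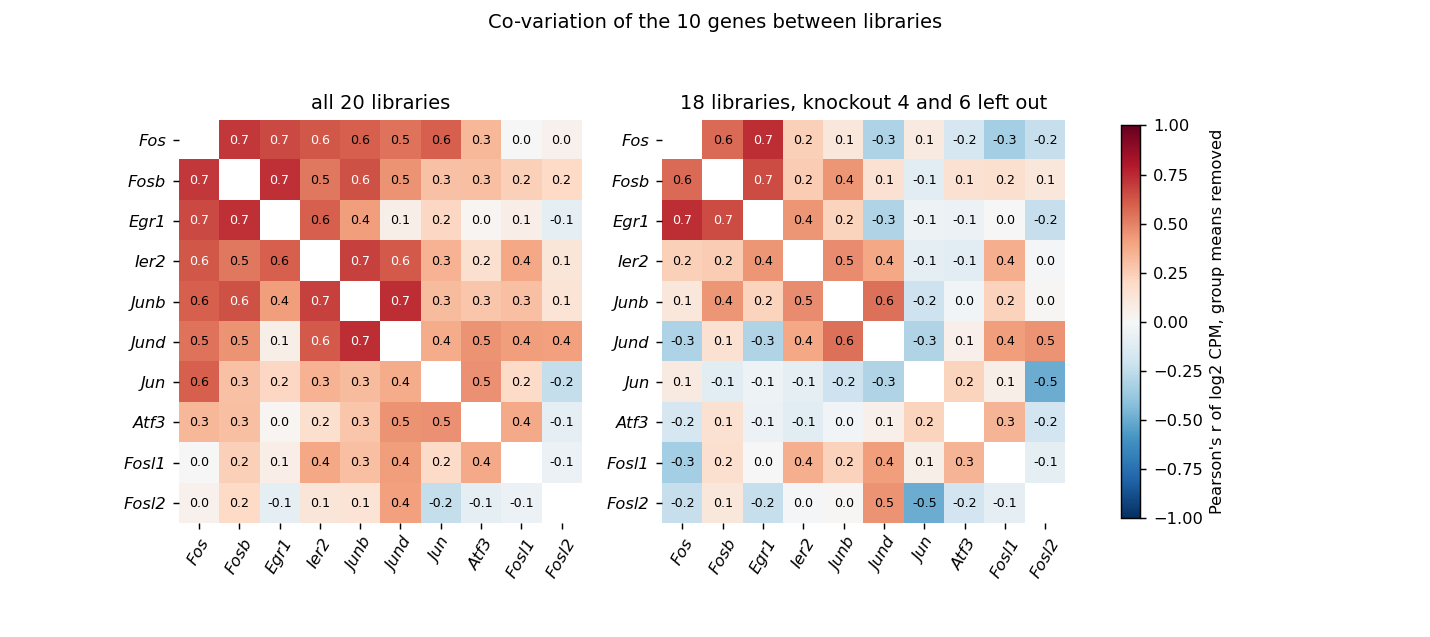
Pearson's r (color and number) between log2 CPM of each pair of genes after removal of group means, over 20 libraries (left) and over 18 libraries without knockout replicates 4 and 6 (right). The block of *Fos*, *Fosb* and *Egr1* is present in both panels, whereas *Fos* with *Jun* goes from 0.60 to 0.09.

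*Fos* and *Fosl2*, the most changed Fos genes, also differed in the genes whose pattern was most like theirs. Among 13266 protein-coding genes with a mean of at least 1 CPM, *Fos* was closest to *Dusp1* (r = 0.84 over 20 libraries, group means removed), an immediate early phosphatase that switches off MAP kinases. *Dusp1* itself differed by 0.02 on the log2 scale, with an SE of 0.20 (adjusted p = 0.945, edgeR). The next were *Alad*, an enzyme of heme synthesis (0.77), *Acaa1a*, a peroxisomal thiolase (0.76), *Spns1*, a lysosomal transporter (0.75), and *Kyat3*, an aminotransferase (0.74). Without knockout replicates 4 and 6 *Dusp1*, *Alad* and *Kyat3* were at 0.69, 0.76 and 0.58, but *Acaa1a* and *Spns1* at 0.34 and 0.32. *Fosl2* was closest to *Csk* (0.89), a kinase that restrains Src, and then to *Naglu*, *Gpr137b*, *Mogs* and *Frrs1* (0.88 each). *Naglu* encodes a lysosomal enzyme and *Mogs* a glucosidase of the endoplasmic reticulum. These 5 were at 0.88 to 0.92 without that pair of libraries.

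Markers of other cells were then set beside the 10 genes, within each group and over 120 relations with Benjamini-Hochberg adjustment. *Fosl2* varied with the osteoclast list, with r = 0.92 over the 8 control libraries (exact permutation p = 0.0034, adjusted 0.119; Spearman's rho 0.79, exact permutation p = 0.0279) and r = 0.81 over the 12 libraries labelled knockout (permutation p = 0.00126, adjusted 0.0756; rho 0.79, permutation p = 0.00309). Neither passed the adjustment, and r was 0.85 and 0.68 once the 2 libraries most distant from the list's median were omitted. Other measures moved with *Fosl2* to a like degree, also without passing. Over the 8 controls r was 0.87 with the macrophage list and 0.83 with the osteoblast and osteocyte list (exact permutation p = 0.00759 and 0.00905, adjusted 0.155 for both). Over the 12 libraries labelled knockout r was -0.76 with the mitochondrial share (permutation p = 0.00398, adjusted 0.119), but 0.35 and 0.48 with those lists. *Fos* did not vary with the osteoclast list, with r = -0.29 in control and -0.09 in the libraries labelled knockout (permutation p = 0.479 and 0.783, exact for the 8 controls). *Junb* and *Ier2* had r of 0.72 and 0.71 with the macrophage list among the libraries labelled knockout, which did not pass (permutation p = 0.00813 and 0.0111, adjusted 0.155 and 0.166). The 1 relation of 120 that passed was that of *Atf3* with 18 heat shock genes among the 12 libraries labelled knockout, with r = 0.90 (permutation p = 6e-05, adjusted 0.0072) and rho of 0.91 (permutation p = 0.0001, adjusted 0.012). Its r was 0.76 without the 2 most distant libraries, and 0.57 over the 8 controls (exact permutation p = 0.139). Other lists also varied with *Atf3* over the 12 libraries labelled knockout, without passing. For the osteoblast and osteocyte list r was -0.56 and rho -0.83 (permutation p = 0.0478 and 0.00128, adjusted 0.351 and 0.0768). For the skeletal muscle list r was 0.60 and rho 0.73 (permutation p = 0.04 and 0.00978, adjusted 0.343 and 0.219). Knockout replicates 3 and 4 had the highest heat shock means of that group, 6.85 and 6.77 on the log2 CPM scale, against a mean of 6.37 ± 0.269 (SD, n = 12).

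**Figure D5:**
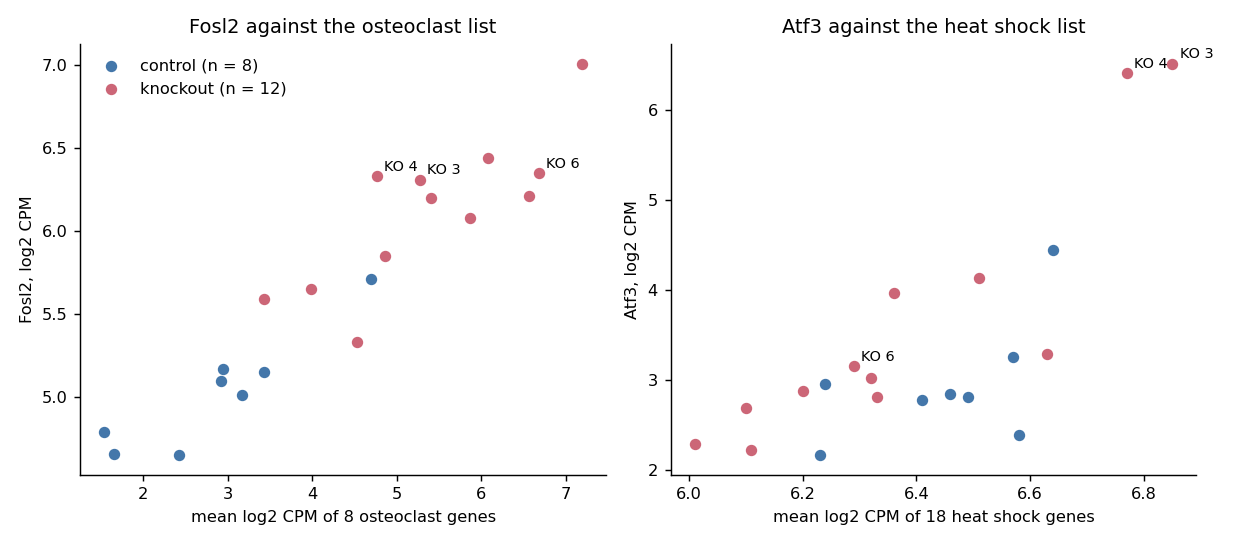
Left, log2 CPM of *Fosl2* against the mean log2 CPM of 8 osteoclast markers, and right, log2 CPM of *Atf3* against that of 18 heat shock genes, in control (blue, n = 8) and labelled knockout (red, n = 12) libraries. *Fosl2* lies higher where the osteoclast list does in both groups (r = 0.92 and 0.81), whereas knockout replicates 3 and 4 lie apart at the top right of the *Atf3* panel.

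With the osteoclast list as a covariate in the edgeR fit, 0 of the 10 genes passed, and so did 0 of the 15984 genes tested. At an unadjusted p under 0.05 there were then 5 of the 10 genes, all higher, and 1262 of all genes. The estimates moved unequally. *Fosl2* went from 1.11 to 0.29 (SE 0.16, adjusted p = 0.682), whereas *Fos* was at 1.64 (SE 0.57, adjusted p = 0.592). *Junb* was at 0.83 (SE 0.30), *Jund* at 0.52 (SE 0.24) and *Ier2* at 0.58 (SE 0.25). *Atf3* went from 1.36 to 2.79 (SE 0.92, adjusted p = 0.592). With the skeletal muscle list as covariate the same number of the 10 genes was called as without it, 5, whereas calls over all genes went from 3673 to 1415.

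The wider pathway was described from lists of its parts. Among 25 tested dimer partners and relatives of the basic leucine zipper class (26 listed), 3 were higher and 0 lower, or 12% against 23.0% of all genes, with a median log2 fold change of 0.084. The 3 were *Jdp2*, a partner of Jun proteins that mostly represses (1.46, SE 0.29), *Batf*, a partner known from lymphocytes (1.16, SE 0.31), and *Creb3*, a factor tethered to the endoplasmic reticulum (0.32, SE 0.08). *Jdp2* averaged 13.8 CPM ± 5.6 (SD, n = 8) over controls and 38.1 CPM ± 19.2 (SD, n = 12) over the libraries labelled knockout, and *Batf* was scarce in both, 0.696 and 1.56 CPM. At an unadjusted p under 0.05, 3 of the 25 were higher and 2 lower, against 2929 and 2981 of all 15984 genes. The DESeq2 Wald test called 0 as lower. The 3 calls became 1 with the skeletal muscle list and 0 with the osteoclast list as covariate in edgeR, where 1 was left at an unadjusted p under 0.05. Under the same 2 covariates, calls over all genes went from 3673 to 1415 and to 0. With the osteoclast list, 1262 of all genes were left at an unadjusted p under 0.05.

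Upstream, 31 kinases and serum response factors were tested, of which 3 were higher and 7 lower, or 32.3% called against 23.0% of all genes, with a median log2 fold change of -0.105. The higher ones were *Rps6ka4* (0.43, SE 0.11), a kinase that phosphorylates histone H3 and CREB at such genes, *Elk3* (0.42, SE 0.15), a partner of serum response factor, and *Nras* (0.26, SE 0.09). The 3 lowest were *Map2k6* (-0.75, SE 0.19), which activates p38, *Rps6ka5* (-0.66, SE 0.15) and *Mapk12* (-0.51, SE 0.15), the p38 kinase abundant in skeletal muscle. The 8 skeletal muscle markers had a median log2 fold change of -0.643 and 3 of them were lower. As a list they did not pass (exact permutation test of the mean log2 level, p = 0.0562, adjusted p = 0.104 over 13 library measures). With that list as a covariate 2 of the 31 were called by edgeR, both lower, against 10 without it. Over all 15984 genes, 1415 were called with that covariate, against 3673 without it. The count was 0 with the osteoclast list as covariate, as it was over all genes. At an unadjusted p under 0.05 there were then 3 of the 31 and 1262 of all genes. The count was 6 without a filter, with library totals alone or without control replicate 4, and 5 without control replicate 8. Why these genes differed was not tested.

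Among other immediate early genes, 15 of 53 tested (54 listed) were called, 12 higher and 3 lower, or 28.3% against 23.0% of all genes, with a median of 0.262. The most increased were *Socs3*, a feedback inhibitor of cytokine signaling (1.19, SE 0.19), the orphan nuclear receptor gene *Nr4a2* (1.08, SE 0.26) and *Myc* (1.01, SE 0.20). *Socs3* averaged 14.9 CPM ± 4.21 (SD, n = 8) over controls and 33.9 CPM ± 11.7 (SD, n = 12) over the libraries labelled knockout, and for all 3 genes the 12 libraries were above the control median. The lower ones were *Arc*, known from synapses (-1.01, SE 0.21), *Gadd45a*, a growth arrest gene (-0.57, SE 0.16), and *Sgk1*, a kinase induced by glucocorticoids (-0.38, SE 0.12). *Arc* averaged 11 CPM ± 4.35 (SD, n = 8) over controls and 5.48 CPM ± 1.45 (SD, n = 12) over the libraries labelled knockout. The 15 calls became 7, 6 higher and 1 lower, with the skeletal muscle list as covariate, and 0 with the osteoclast list, where 6 were left at an unadjusted p under 0.05 in edgeR. Calls over all genes went from 3673 to 1415 with the skeletal muscle list and to 0 with the osteoclast list. In the latter fit 1262 of all genes were left at an unadjusted p under 0.05.

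Genes known as AP-1 targets were called in 1 direction, with 12 of 21 tested (24 listed) higher in the libraries labelled knockout and 0 lower, or 57.1% against 23.0% of all genes, and a median log2 fold change of 0.913. This list was chosen with earlier results of these data known, and the study had reported *Mmp9* and *Mmp13* as higher in these animals. The share called is therefore a description and no separate evidence. At an unadjusted p under 0.05 there were 14 higher and 0 lower, against 2929 higher and 2981 lower among all 15984 genes. The DESeq2 Wald test called 12 higher and 0 lower. The most increased were *Acp5* (2.85, SE 0.56), the acid phosphatase of osteoclasts, which also stands in the osteoclast list, and the matrix proteases *Mmp9* (2.82, SE 0.57) and *Mmp13* (2.62, SE 0.53). *Mmp13*, the collagenase of hypertrophic cartilage and bone, averaged 164 CPM ± 87.4 (SD, n = 8) over controls and 1012 CPM ± 825 (SD, n = 12) over the libraries labelled knockout. Osteoclast markers were higher in the same libraries, with a median log2 fold change of 2.7, but their relation to these genes over libraries was not tested. With the osteoclast list as covariate 0 of the 21 passed, and 0 of all 15984 genes did. At an unadjusted p under 0.05, 6 of the 21 were then higher and 0 lower, against 1262 of all genes called in either direction.

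Heat shock genes belong to a second stress response, and their share called was close to that of all genes. Of 18 tested, 1 was higher, the HSP70 co-chaperone gene *Dnajb1* (0.42, SE 0.14), and 3 were lower, *Hspd1* (-0.52, SE 0.11), *Hsph1* (-0.38, SE 0.13) and *Chordc1* (-0.29, SE 0.10). That is 22.2% against 23.0% of all genes, and the count moved by over 1.5 times in 22 of 30 alternatives, down to 1 of 18 when single libraries such as control replicate 4 were left out. In 11 of the 30 no gene of the list was called as higher. *Hspd1* encodes the chaperonin of mitochondria, and the others serve HSP70 or HSP90.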

How the data were processed

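Gene expression was measured by RNA-seq in 8 control libraries and 12 libraries labelled knockout, grouped by sample title. The authors extracted total RNA with TRIzol, trimmed paired-end Illumina reads, mapped them to mm10 and deposited raw counts per Ensembl gene from featureCounts. Aligner, annotation release, strand setting and treatment of reads with several positions are not given in the sources used here, so counts of overlapping genes are uncertain. Symbols and coordinates came from GENCODE M21 on the same build (54495 of 54532 identifiers matched), promoters from RefSeq.

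Genes passing filterByExpr were tested with edgeR 4.0.16 (R 4.3.3), TMM scaling and the two-sided quasi-likelihood F-test, with Benjamini-Hochberg adjustment over 15984 genes at 0.05. SE was derived from the F statistic. CPM uses TMM-scaled library sizes, and log2 CPM has a prior count of 2. DESeq2 1.42.0, whose Wald test the study used, was an alternative, beside other scalings, filters, covariates, the replicate block and omission of libraries. Single measures were compared by exact permutation over 125970 assignments. Within-group correlations used 40320 pairings or 100000 resamples. The smallest chi-square between 190 pairs of libraries was 32.9 per degree of freedom, so none was a duplicate. Each library was taken as 1 animal, since the study's methods give as many animals as libraries. A gene at 3 counts is at most 0.269 CPM in the shallowest library, counting error only.

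The 10 genes and all lists were chosen with earlier results of these data known. Named genes are these 10, *Loxl2*, the 3 most increased and 3 most decreased called genes of each pathway list, and the 5 genes most like *Fos* and like *Fosl2*.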

Additional observations from a re-analysis of the deposited data

Results flagged for a closer look

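In the control group, the highest library of 3 genes stood apart by Dixon's test, which compares the gap to the next library with the whole range of the group. Such a test marks about 1 in 20 groups by chance if the values are normally distributed. Here it was run on CPM and not on log2 CPM, so that rate may not hold. The highest *Fosl2* value, 52.3 CPM in control replicate 5, had a gap of 0.605 of the range. The highest *Jun* value, 189 CPM in control replicate 8, had a gap of 0.534. The highest *Atf3* value, 21.8 CPM in control replicate 4, had a gap of 0.711. These were 3 of 11 genes checked, in the control group only. The libraries labelled knockout were not put through this test, and single high libraries occurred there as well. Knockout replicate 4 had 116 CPM of *Fos*, with knockout replicate 6 next at 50.3 CPM, and 141 CPM of *Jund*, with knockout replicate 7 next at 83.2 CPM. Without the library in question, *Fosl2* had a log2 fold change of 1.24 and *Atf3* one of 1.73, and *Jun* one of 0.06.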

How the results depend on the processing

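The count of 5 genes called among the 10 was the same in all 20 fits with 1 library left out and under every other alternative except library totals alone, where *Egr1* joined them, and the osteoclast list as covariate, where 0 passed. That covariate also gave 0 calls over all genes and 0 among other immediate early genes, whereas the skeletal muscle list as covariate gave 1415 and 7, against 3673 and 15. With 1 library left out, calls over all genes ran from 2551 (without control replicate 8) to 4181, and other immediate early genes from 10 to 17. The labels do not say whether replicate numbers pair the animals. Same-numbered libraries correlated at -0.36 to 0.168 over 8 pairs, 2 of them over 0.1, and 0 of 8 control libraries were closest to their own number. Such a correlation shows no pairing here but cannot exclude one. With the replicate block, fitted to 16 libraries, 1786 genes were called, 5 of the 10, 10 other immediate early genes, 2 dimer partners (3 without it) and 1 upstream gene (10 without it). The same 16 libraries without block terms, a setting added after seeing the data, gave 3280. *Jun*, at -0.08 and far from the threshold, changed sign to 0.10 with library totals alone, 0.0004 with the replicate block, 0.005 with those 16 libraries, 0.15 with the muscle list, 0.33 with the osteoclast list and 0.062 without control replicate 8 (range -0.19 to 0.062 with 1 library left out). *Fosl1* ran from -0.13 to 0.11 with 1 library left out and was -0.042 without knockout replicates 4 and 6 together. The cause was not tested. Of 300 values of the 10 genes under 30 alternatives, 281 kept direction and side of the threshold, 5 lost the call, 1 gained it and 13 changed sign. *Fosb* and *Fosl1* had as few as 8 and 12 counts in a library, and a coefficient of variation between animals of 67.7% and 40.4% in the fit.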

Other observations

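Other cell types in the dissected tissue were described by lists of 8 markers each. Mast cell genes were higher in the libraries labelled knockout, with 5 of 6 tested passing (edgeR adjusted p under 0.05) and 0 lower, and a mean log2 CPM of 1.29 ± 1.48 (SD, n = 12) against -0.745 ± 0.552 (SD, n = 8) in control (exact permutation test, adjusted p = 0.00822 over 13 measures). Of the osteoblast and osteocyte genes 4 of 8 were higher (6.76 ± 1.16 against 5.32 ± 1.18, adjusted p = 0.0371, exact permutation test). Chondrocyte genes did not pass as a list (5.22 ± 0.938 against 4.56 ± 1.69, exact permutation test, adjusted p = 0.384), and 1 of 7 tested was higher. Neutrophil genes (adjusted p = 0.0917), erythroid genes (0.107), B cell genes (0.384) and endothelial genes (0.476) did not pass the exact permutation test either, with 1 of 8, 0 of 7, 0 of 5 and 0 of 8 tested genes called by edgeR.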
